A study of Homo sapiens with 6 samples.

Results

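Immune checkpoint ligands are molecules that tumor cells place on their surface, or enzymes that they make, and that restrain T cells, NK cells or macrophages. The 9 genes examined here were CD274, PDCD1LG2, CD276, VTCN1, LGALS9, PVR, NECTIN2, CD47 and IDO1, chosen by name from the 16390 genes listed in each library of the bladder cancer cell line SW780. All 9 were listed, and 8 of the 9 had enough reads for the test, with VTCN1 as the exception. SW780 stands for the luminal type in this study. RC48 (disitamab vedotin) is an antibody–drug conjugate whose antibody binds ERBB2 and whose payload, monomethyl auristatin E, blocks microtubules. RNA of SW780 was sequenced in 3 libraries after exposure to RC48 (25 µg/ml) and in 3 Control libraries without it. Neither the labels nor the methods name the exposure time or what the Control cells received, and 1 cell line in culture was used, without a second luminal line in these libraries. Whether the replicates were separate cultures is not stated, so p-values measure the spread between these libraries, which may be technical.

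The ligands act on different receptors. PD-L1 (CD274) and PD-L2 (PDCD1LG2) engage PD-1 on T cells, and their genes are classically induced by interferon-γ through JAK kinases and IRF1, with NF-κB as a further input. PVR and NECTIN2 are nectin-family proteins that bind the inhibitory receptor TIGIT and also the activating receptor CD226, galectin-9 (LGALS9) is a ligand of TIM-3, and CD47 binds SIRPα on macrophages and keeps them from engulfing the cell. IDO1 is not a ligand but an enzyme that degrades tryptophan to kynurenine, which dampens T cells.

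Of the 9 genes, LGALS9, PDCD1LG2 and CD47 were called higher after RC48 once the libraries were corrected for GC content, and none was called before it, while CD274, CD276, PVR, NECTIN2 and IDO1 were called in neither fit. Without a correction for GC content, 0 of the 8 tested genes passed an adjusted p-value of 0.05 (Benjamini-Hochberg adjustment over all genes tested, from the quasi-likelihood test in edgeR), against 2.21% of the 13055 genes tested (1.98% called higher). For 3 of the 8 (LGALS9, PDCD1LG2 and NECTIN2) the unadjusted p-value was under 0.05, as for 19.1% of all genes tested. DESeq2 called 1 of the 8 (LGALS9), with 4.93% of its genes called. After each library was corrected for its trend with the GC content of the transcripts, 3 of the 8 were upregulated (LGALS9, PDCD1LG2 and CD47) and 0 downregulated, where 6.83% of all genes were called and 4.37% were called higher. Leaving out 1 library moved these background shares. Without the correction they were 0.537%, 0.591% and 0.515% without Control replicates 1, 2 and 3 and 6.82%, 28.3% and 0.706% without RC48 replicates 1, 2 and 3. With it they were 1.85%, 2.02% and 2.62%, and 11.4%, 17% and 2.2%. The median log2 fold change of the 8 genes was 0.47, and 0.65 with the correction, beside 0.02 and -0.01 over all genes tested. Their fitted log2 fold change was above 0 in 8 of 8 without the correction, against 51.4% of all genes. With the correction that of PVR was below 0 (-0.17), and the share of all genes above 0 was not counted. Every RC48 library stood above every Control library for 4 of the 8, against 17.4% of all genes, and below for 0, against 14.1%. All these counts and medians include PDCD1LG2, which met the read filter only through its RC48 libraries, where it was higher. In these libraries fewer cells of a kind and less RNA per cell cannot be told apart.

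Totals ran from 16453233 to 17988030 estimated counts per library. Replicates of Control differed from each other by a chi-square per degree of freedom of 1.44 to 11.6 and those of RC48 by 22.3 to 136 (11977 genes), where 1 is sampling noise. The RC48 libraries differed from each other by GC content. The log2 ratio of RC48 replicate 1 to the Control mean ranked with GC content at a Spearman's rho of 0.736 over 13018 genes, that of replicate 2 at -0.0101 and that of replicate 3 at 0.565. These are descriptions across genes of single libraries, and genes are not independent replicates. In the tenth of the genes with the lowest GC content the median log2 ratio was -0.97, 0.01 and -0.37 in RC48 replicates 1, 2 and 3, and in the tenth with the highest it was 0.67, 0.01 and 0.25. The 9 genes lie on both sides of this trend, from 38.8% GC for CD47 to 62.4% for CD276, so each result is given with and without the correction.

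The cells carried epithelial RNA and little leukocyte RNA. The summed level of 8 epithelial markers was 11781.1 to 13632.7 CPM (counts relative to library size, with edgeR's TMM factors) in Control and 13622.0 to 18509.5 CPM after RC48, with KRT7 as the most abundant. GATA3 led the 8 luminal markers with 243.4 CPM on average, and CD44 led the basal markers with 320.3 CPM, while KRT5 had 7.22 CPM and KRT6B and KRT6C were not listed. Of 16 leukocyte markers 12 were listed, and CD2, MS4A1 and TYROBP were among those that were not. Their sum was 19.0 to 20.3 CPM in Control and 21.1 to 40.0 CPM after RC48, mostly from CD68, which many cell types use. Of 10 fibroblast and endothelial markers, COL3A1 and LUM had 346.0 and 129.9 CPM on average, and the sum of the 9 listed ones was 483.9 to 515.3 CPM in Control and 491.6 to 597.9 CPM after RC48. Of all these markers 1 was called, the luminal KRT20, lower after RC48. The part of the marker levels in the results below was not tested. ERBB2, the target of the antibody, had 204.9 ± 3.05 CPM in Control and 228.8 ± 46.3 CPM after RC48 (SD, n = 3 each), with overlapping groups. With the GC correction its direction turned, to 221.0, 225.9 and 229.9 CPM in Control and 200.1, 203.7 and 211.5 CPM after RC48 (replicates 1, 2 and 3), without overlap (log2 fold change -0.14, adjusted p = 0.28, edgeR).

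**Figure D1:**
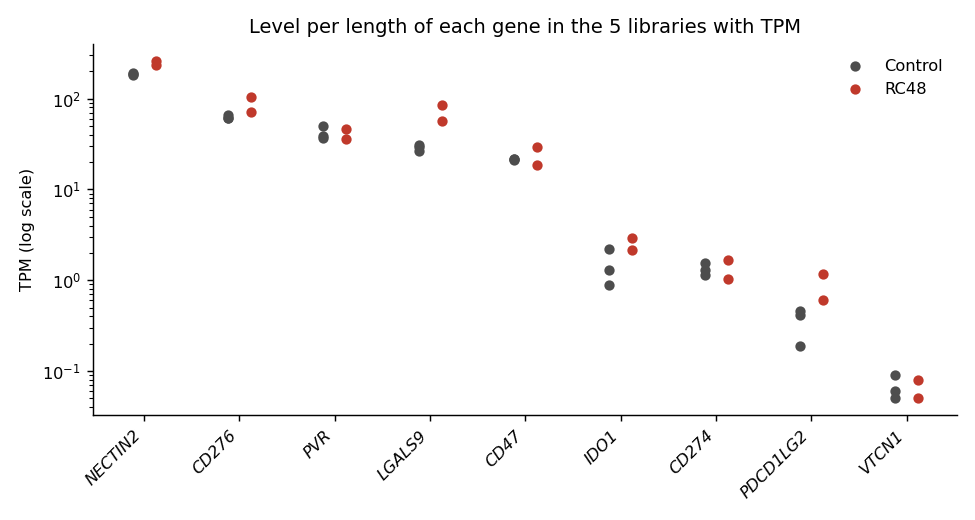
Deposited TPM (transcripts scaled to library size, a level per transcript length, log axis) of the 9 genes in the 5 libraries with a TPM file, 1 point per library, ordered by the Control mean. NECTIN2 stands highest and VTCN1 lowest, and the 2 RC48 points of LGALS9 (56.8 and 84.8) lie above the RC48 points of PVR (36.4 and 45.9), whereas in Control LGALS9 lies below PVR. RC48 replicate 2, the RC48 library without a GC trend, is not shown.

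On the TPM scale, which allows levels of different genes to be set side by side, the 9 genes spanned a wide range. NECTIN2 was the most abundant in Control with a level of 186.5 ± 3.45 TPM (SD, n = 3), higher than 94.6% of the listed genes. It was followed by CD276 with 62.7 ± 3.32 TPM, PVR with 41.8 ± 6.85 TPM, LGALS9 with 28.9 ± 2.0 TPM and CD47 with 21.4 ± 0.517 TPM. IDO1 and CD274 came next with levels of 1.47 ± 0.676 and 1.32 ± 0.207 TPM, and their ranges overlapped. PDCD1LG2 had 0.353 ± 0.144 TPM and VTCN1 0.0667 ± 0.0208 TPM. Apart from IDO1 and CD274, neighbours in this order did not overlap in Control. In the 2 RC48 libraries with a TPM file, replicates 1 and 3, LGALS9 had levels of 84.8 and 56.8 TPM and so stood above PVR. Within each of these libraries LGALS9 stayed below CD276 (104.0 and 71.8 TPM). PDCD1LG2 (0.61 and 1.18 TPM) likewise stayed below CD274 (1.03 and 1.67 TPM). RC48 replicate 2, which had no TPM file, was the RC48 library without a GC trend (Spearman's rho -0.0101). Of the RC48 libraries it had the lowest LGALS9 level in CPM (37.0). These TPM are not corrected for GC content.

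The promoter sequences of 3 genes are shown because they belong to LGALS9, which DESeq2 called without the GC correction, to CD47, which was called with that correction in each fit that left out 1 library, and to the gene for PD-L1, which was called by edgeR neither with nor without it. Each runs from 250 bases before the annotated start to 50 bases after it (RefSeq, GRCh38.p14), 5′ to 3′ on the gene's strand, and capitals mark matches to the interferon-stimulated response element core (GAAA, any 2 bases and GAAA, or on the other strand TTTC, any 2 bases and TTTC), or to the STAT site TTCNNNGAA. LGALS9 is at chr17:27630938-27631237 on the plus strand, CD47 at chr3:108090982-108091281 on the minus strand and CD274 at chr9:5450292-5450591 on the plus strand.
LGALS9: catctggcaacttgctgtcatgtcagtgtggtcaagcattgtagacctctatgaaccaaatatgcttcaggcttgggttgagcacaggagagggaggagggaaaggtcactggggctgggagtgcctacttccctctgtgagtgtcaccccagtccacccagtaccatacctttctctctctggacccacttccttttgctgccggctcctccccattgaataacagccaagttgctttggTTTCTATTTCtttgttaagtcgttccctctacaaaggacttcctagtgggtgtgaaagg
CD47: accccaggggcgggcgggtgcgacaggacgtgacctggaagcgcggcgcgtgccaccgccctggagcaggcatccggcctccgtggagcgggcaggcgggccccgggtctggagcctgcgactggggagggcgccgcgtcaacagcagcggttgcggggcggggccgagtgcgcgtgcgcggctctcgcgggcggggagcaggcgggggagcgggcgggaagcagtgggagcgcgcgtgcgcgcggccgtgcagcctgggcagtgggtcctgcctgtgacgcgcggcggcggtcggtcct
CD274: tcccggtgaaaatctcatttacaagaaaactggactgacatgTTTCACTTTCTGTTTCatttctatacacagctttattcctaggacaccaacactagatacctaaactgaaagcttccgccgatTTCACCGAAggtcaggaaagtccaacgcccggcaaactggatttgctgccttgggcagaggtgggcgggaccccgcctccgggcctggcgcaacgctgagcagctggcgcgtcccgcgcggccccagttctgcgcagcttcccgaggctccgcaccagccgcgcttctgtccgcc
The response element core was found in the promoters of CD274 and LGALS9, that is in 2 of the 7 genes with a promoter in the table, and in 3.57% of 35116 promoters of the same length. CD274 held a pair of overlapping matches that begin 208 and 202 bases before the start, and LGALS9 held 1 that begins 9 bases before it. The STAT site was found in CD274 alone of the 7 genes, 125 bases before the start, and in 7.66% of all promoters. The NF-κB consensus, searched on both strands, was found in CD276 alone of the 7 and in 11.3% of all promoters. CD47 held none of these letters in this window. A match describes the sequence and is no evidence of binding.

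**Figure D2:**
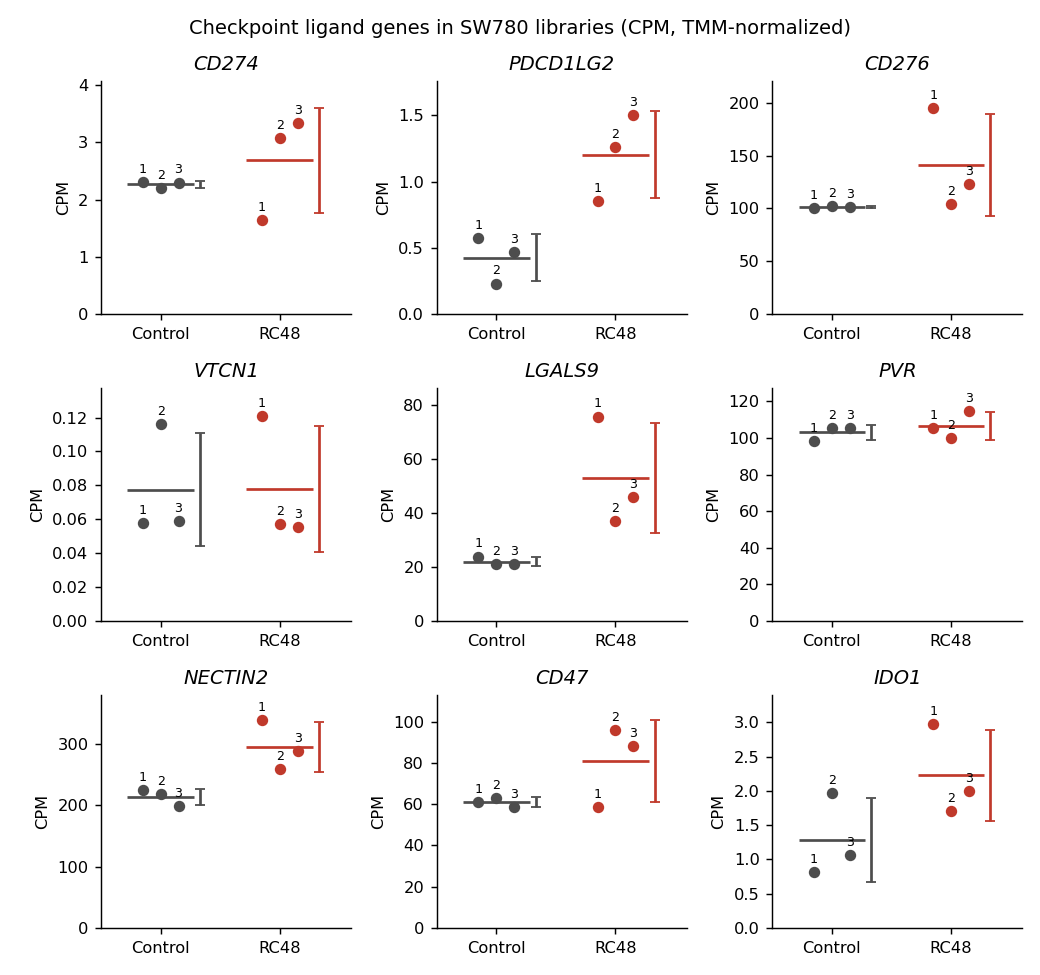
CPM (TMM-normalized, linear axis from 0) of the 9 genes in 3 Control and 3 RC48 libraries, 1 point per library with its replicate number, the line the mean and the bar 1 SD. For LGALS9, PDCD1LG2, CD276 and NECTIN2 every RC48 point lies above every Control point, and for CD276 replicate 1 (195.2) stands far above replicates 2 (103.9) and 3 (123.0).

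CD274 and PDCD1LG2, the genes of the PD-1 ligands, are neighbours on chromosome 9, at 5450542 to 5470554 and 5510531 to 5571282, with 40.0 kb between them. CD274 (NCBI gene 29126) had 40, 38 and 39 counts in Control replicates 1, 2 and 3, or 2.31, 2.20 and 2.30 CPM. In RC48 replicates 1, 2 and 3 it had 27, 54 and 60 counts, or 1.64, 3.08 and 3.34 CPM. Replicate 1 lay below each Control library and replicates 2 and 3 above each of them, so the groups overlapped. The exact 95% Poisson interval of 27 counts was 17.8 to 39.3, below that of the 54 counts of replicate 2 (40.6 to 70.5) and of the 60 counts of replicate 3 (45.8 to 77.2). These intervals cover counting error only. The log2 fold change was 0.25 (SE, standard error, 0.28, adjusted p = 0.571, edgeR). Its 95% interval of 0.756-fold to 1.86-fold leaves room for a modest change in either direction. Corrected for GC content, the CPM were 2.11, 2.03 and 2.04 in Control and 2.26, 2.81 and 3.55 after RC48. The groups then no longer overlapped, and the log2 fold change was 0.49 (95% interval 0.03 to 0.96), but CD274 was not called either (adjusted p = 0.181, edgeR). Over 23 alternatives the adjusted p-value lay between 0.00161 and 0.992, and limma's voom, which called 61.4% of all genes, was the only alternative that called it.

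PDCD1LG2 (NCBI gene 80380) was read far less often, with 10, 4 and 8 counts in Control and 14, 22 and 27 counts in RC48 replicates 1, 2 and 3. In CPM this was 0.578, 0.232 and 0.471 against 0.850, 1.26 and 1.5. Its 3 RC48 libraries were all higher than its 3 Control libraries. The pooled counts of 22 and 63 gave 2.84 times the Control level after scaling (exact 95% interval for counting error 1.72 to 4.85). The log2 fold change of 1.49 (SE 0.39) was the highest of the 8 but was not called (adjusted p = 0.120, edgeR). Without the correction PDCD1LG2 was called when RC48 replicate 1 (adjusted p = 0.0180) or 2 (0.0459) was left out, with 6.82% and 28.3% of all genes called. It was not called without Control replicate 1, 2 or 3 (0.276, 0.418 and 0.375) or without RC48 replicate 3 (0.399). With the GC correction PDCD1LG2 was upregulated with a log2 fold change of 1.77 (SE 0.35, adjusted p = 0.0224, edgeR). This call was lost without any 1 of the Control libraries (adjusted p = 0.0602, 0.0904 and 0.0930 without replicates 1, 2 and 3) or without RC48 replicate 3 (0.118), and was kept without RC48 replicate 1 (0.0140) or 2 (0.0219). PDCD1LG2 met the read filter only through its RC48 libraries, so its being tested was not independent of its being higher there. A filter of at least 10 counts in every library left it out. Of the 7 genes then tested 0 were called, with 1.82% of all genes called.

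CD276 (B7-H3, NCBI gene 80381; chromosome 15 at 73683944 to 73714514) and VTCN1 (B7-H4, NCBI gene 79679; chromosome 1 at 117143587 to 117210927) are members of the B7 family whose receptors are less well defined. CD276 was close to constant in Control with 100.7, 101.9 and 101.3 CPM. In RC48 replicates 1, 2 and 3 it had 195.2, 103.9 and 123.0 CPM. The RC48 libraries stood above Control in each case, replicate 2 by little and replicate 1 by most. CD276 has the highest GC content of the 9 genes (62.4%, higher than 90.9% of the genes tested). Its log2 fold change was 0.47 (SE 0.22, adjusted p = 0.279, edgeR), and 0.12 (95% interval -0.09 to 0.33, adjusted p = 0.435) with the GC correction, after which the groups overlapped. It was 0.16 without RC48 replicate 1, and 0.65 with a call without RC48 replicate 2 (adjusted p = 0.0384, with 28.3% of all genes called). VTCN1 had 1 or 2 counts in every library, 4 in all in Control and 4 after RC48. Scaled for library size, their ratio of 0.992 had an exact 95% interval of 0.185 to 5.33, so that a several-fold change in either direction was not detectable at this depth.

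LGALS9 (NCBI gene 3965; chromosome 17 at 27631188 to 27649560), the gene of the TIM-3 ligand galectin-9, had 23.9, 21.0 and 21.1 CPM in Control. It had 75.7, 37.0 and 46.0 CPM in RC48 replicates 1, 2 and 3. The lowest RC48 library stood above the highest Control library, and replicate 1 was the highest. On average LGALS9 went from 22 ± 1.65 to 52.9 ± 20.3 CPM (SD, n = 3 each). Its log2 fold change was 1.26 with a 95% interval from 0.66 to 1.86. The adjusted p-value of 0.0575 lay just above the threshold (edgeR's quasi-likelihood test). A two-sided exact permutation test on log2 CPM gave p = 0.1, the smallest that 3 libraries against 3 allow, here as for PDCD1LG2, CD276 and NECTIN2. The GC correction narrowed the spread between the RC48 libraries to 57.6, 40.1 and 43.7 CPM, and LGALS9 was upregulated by a log2 fold change of 0.98 (SE 0.14, adjusted p = 0.00669, edgeR). With the correction it was kept in each fit that left out 1 library other than Control replicate 3 (adjusted p = 0.0537, log2 fold change 0.96). Without the correction it was also called by DESeq2 (adjusted p = 3.1e-04) and by limma on log2(TPM+1) over the 5 libraries with a TPM file (adjusted p = 0.0150, with 20.8% of all genes called), and by edgeR without RC48 replicate 1 (5.8e-04) or 2 (0.00712). It was not called without Control replicate 1, 2 or 3 (0.215, 0.278 and 0.304) or without RC48 replicate 3 (0.162). The near-identical copies LGALS9B and LGALS9C, which could share reads with it, had 6 and 16 counts in Control and 4 and 13 after RC48. Summed with them, LGALS9 had a log2 fold change of 1.24 (adjusted p = 0.0618, edgeR).

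PVR and NECTIN2 (NCBI genes 5817 and 5819) lie 180.1 kb apart on chromosome 19, at 44643910 to 44666162 and 44846297 to 44889223. PVR, the high-affinity ligand of TIGIT, had 98.1, 105.3 and 105.5 CPM in Control and 105.2, 99.9 and 114.9 CPM in RC48 replicates 1, 2 and 3. The groups overlapped. Its log2 fold change was 0.05 (SE 0.11, adjusted p = 0.777, edgeR) with a 95% interval from 0.862-fold to 1.25-fold, the narrowest interval of the 8 genes. After the GC correction it was -0.17 (95% interval -0.46 to 0.12, adjusted p = 0.426), and with library sizes in place of TMM it was -0.01.

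NECTIN2, the weaker TIGIT ligand and also a ligand of PVRIG, had 224.1, 217.7 and 198.4 CPM in Control and 338.7, 258.3 and 288.3 CPM after RC48. All 3 RC48 libraries were higher than the Control libraries. The log2 fold change was 0.47 (SE 0.13, adjusted p = 0.154, edgeR). With the GC correction the groups overlapped, and the log2 fold change was 0.17 (95% interval -0.04 to 0.38, adjusted p = 0.292). Like CD276, NECTIN2 is rich in GC (61.1%), and it was called in edgeR only without RC48 replicate 2 (adjusted p = 0.0269, with 28.3% of all genes called).

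CD47 (NCBI gene 961; chromosome 3 at 108043091 to 108091031), the macrophage checkpoint, showed the opposite dependence. It had 61.1, 63.2 and 58.5 CPM in Control and 58.4, 96.1 and 88.1 CPM in RC48 replicates 1, 2 and 3. Replicates 2 and 3 stood above Control, and replicate 1 lay just below it. The log2 fold change was 0.41 (SE 0.19, adjusted p = 0.276, edgeR). CD47 has the lowest GC content of the 9 genes (38.8%), lower than all but 4.29% of the genes tested, and genes of this content had a median log2 ratio of -0.97 in RC48 replicate 1. Corrected for GC content, the RC48 libraries had 94.6, 82.9 and 97.8 CPM against 53.1, 55.5 and 49.3 CPM in Control. CD47 was then upregulated with a log2 fold change of 0.80 (SE 0.09, adjusted p = 0.00207, edgeR). All 6 fits with the correction and 1 library left out kept this call, with log2 fold changes from 0.73 to 0.87 and adjusted p-values of at most 0.0216. Without the correction CD47 was called when RC48 replicate 1 was left out (log2 fold change 0.59, adjusted p = 0.00358, with 6.82% of all genes called).

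IDO1 (NCBI gene 3620; chromosome 8 at 39913891 to 39928790) had 13.9, 34.4 and 18.1 estimated counts in Control and 49.3, 30.1 and 36 in RC48 replicates 1, 2 and 3. In CPM this was 0.809, 1.97 and 1.06 against 2.98, 1.71 and 2.0. Control replicate 2 lay above RC48 replicate 2, so the groups overlapped. The log2 fold change of 0.79 (SE 0.37, adjusted p = 0.276, edgeR) had a 95% interval from 0.954-fold to 3.15-fold. It was 1.08 with the GC correction (adjusted p = 0.174). Without the correction the log2 fold change ran from 0.53 (RC48 replicate 1 left out) to 1.24 (Control replicate 2 left out), with adjusted p-values from 0.0895 to 0.534 (edgeR).

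**Figure D3:**
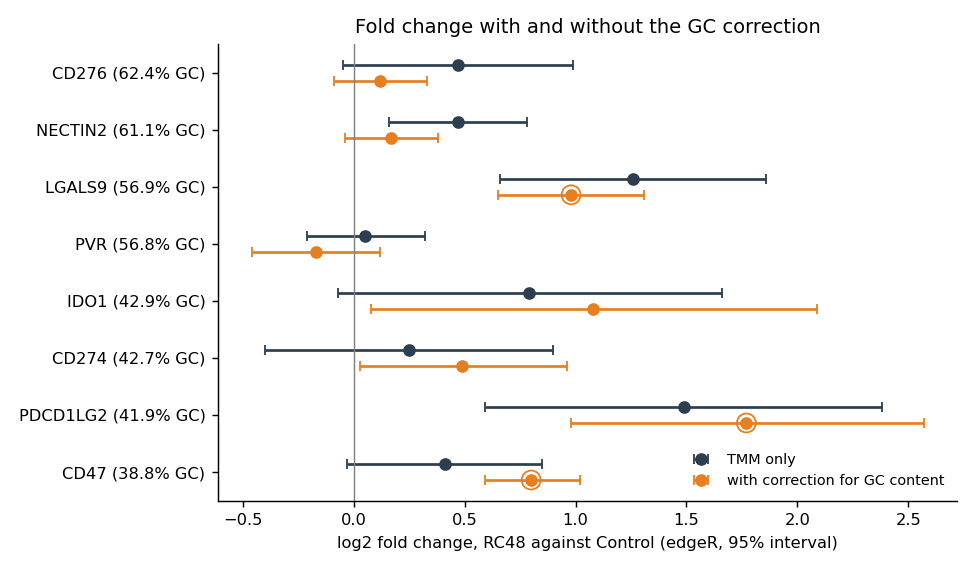
Log2 fold change of the 8 tested genes, RC48 against Control (edgeR), with 95% intervals, by TMM alone and with the correction for GC content, ordered by the GC content of the transcripts. Rings mark adjusted p-values under 0.05, which only LGALS9, PDCD1LG2 and CD47 reach, each with the correction, while CD276 and NECTIN2 at the GC-rich end move towards 0.

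**Figure D4:**
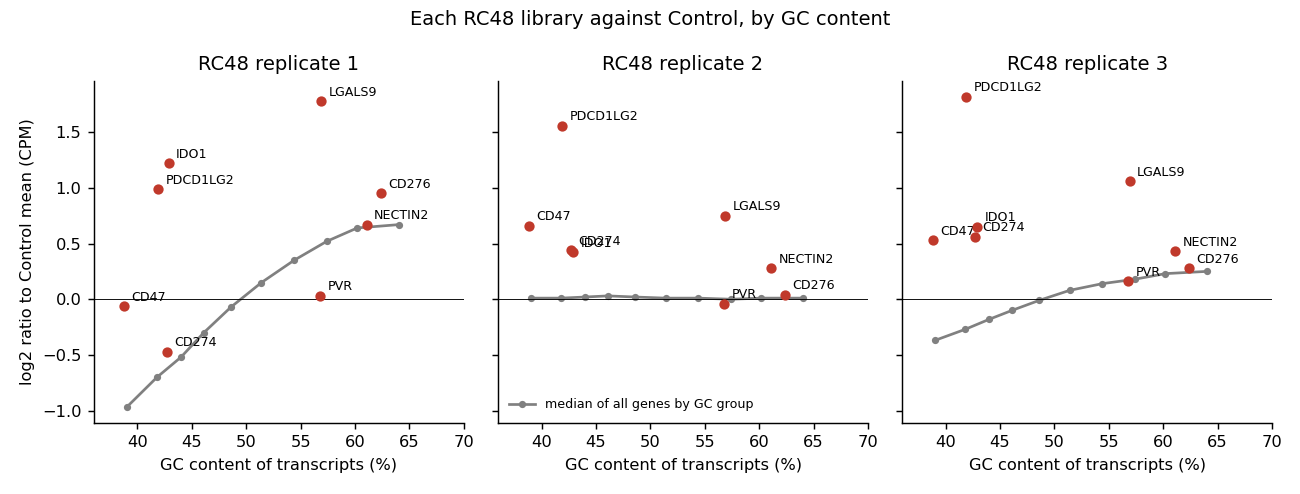
Log2 ratio to the Control mean (CPM) in each RC48 library against the GC content of the transcripts. Grey points are medians of 10 groups of 1301 or 1302 genes and red points the 8 tested checkpoint genes. In replicate 1 the grey line climbs from -0.97 to 0.67. CD276 (0.95) and NECTIN2 (0.67) lie towards its upper end, whereas CD47 (-0.06), at the GC-poor end, lies above the line.

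The plot by GC content shows how the genes stood within each library. LGALS9 had log2 ratios of 1.78, 0.75 and 1.06 in RC48 replicates 1, 2 and 3, and PDCD1LG2 had 0.99, 1.56 and 1.82. In replicate 2, the library without a GC trend, the log2 ratio was 0.66 for CD47, 0.44 for CD274, 0.42 for IDO1, 0.28 for NECTIN2, 0.04 for CD276 and -0.04 for PVR. CD276, which belongs to the tenth of the genes with the highest GC content, had 0.95, 0.04 and 0.28 in replicates 1, 2 and 3, beside medians of 0.67, 0.01 and 0.25 in that group.

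Other genes of these pathways were read from the same fit. Of 14 other genes, B7 and butyrophilin members with TNFRSF14 of the TNF receptor family, 10 were tested. Among these, 1 was upregulated and 0 downregulated. This was ICOSLG (NCBI gene 23308), the ligand of the T-cell costimulator ICOS. It had 1.36 ± 0.485 CPM in Control and 12.3 ± 2.92 CPM after RC48 (SD, n = 3 each), with 15.4, 9.54 and 12.1 CPM in RC48 replicates 1, 2 and 3. Its log2 fold change of 3.17 (SE 0.30, adjusted p = 0.00181, edgeR) exceeded that of each checkpoint gene, and it was called in each of the 6 fits without 1 library (adjusted p at most 0.0192). In the fit with the GC correction 3 of the 10 were upregulated, ICOSLG, TNFRSF14 (HVEM, the ligand of BTLA; log2 fold change 0.54, adjusted p = 0.0132) and the butyrophilin BTN2A2 (0.39, adjusted p = 0.0361). Of 18 further genes, mostly ligands of inhibitory receptors, 14 were tested and 0 were called by edgeR with or without the correction. Among them NECTIN1 had a log2 fold change of 0.00, NECTIN4 of 0.29 and HLA-E, the ligand of NKG2A, of 0.51 (adjusted p = 0.126).

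Genes that handle PD-L1 protein, such as CMTM6, which protects it from lysosomal breakdown, and its relative CMTM4, gave 0 calls among 13 tested, with and without the correction. CMTM6 had 268.7 ± 10.6 CPM in Control and 202.0 ± 68.0 CPM after RC48 (SD, n = 3 each), with an adjusted p of 0.315 (edgeR).

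Of 22 genes on the interferon-γ route to CD274, 6 were upregulated and 0 downregulated, and 13 were upregulated with the GC correction. They included TAP1, which moves peptides to MHC class I (91.2 ± 1.77 to 159.6 ± 16.6 CPM, SD, n = 3 each, adjusted p = 0.0166, edgeR), HLA-B (log2 fold change 0.95, adjusted p = 0.00979) and B2M, the light chain of MHC class I (0.62, adjusted p = 0.0326). IRF9, STAT2 and STAT3 were the other 3. Reads of HLA-B can be shared with its near-identical relatives. IRF1, the factor that acts on the CD274 promoter, had 123.1 ± 6.50 and 177.9 ± 7.64 CPM, and its log2 fold change of 0.53 missed the threshold (adjusted p = 0.0583, edgeR; 0.130 with the GC correction). JAK2, which lies 320.6 kb before CD274 on chromosome 9, had a log2 fold change of -0.03 (adjusted p = 0.948). The 6 calls fell to 1, 1 and 0 without Control replicates 1, 2 and 3 and to 1 without RC48 replicate 3, with 0.515% to 0.706% of all genes called. They rose to 14 and 12 without RC48 replicates 1 and 2, with 6.82% and 28.3% of all genes called.

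Among 10 genes of NF-κB subunits and feedback, 7 were upregulated and 0 downregulated, with a median log2 fold change of 1.95. The list was chosen with earlier results of these libraries known. TNFAIP3 (A20), an inhibitor of NF-κB, went from 4.97 ± 0.441 to 58.0 ± 4.73 CPM (SD, n = 3 each). This was a log2 fold change of 3.54 (adjusted p = 7.7e-05, edgeR). RELB, BIRC3, ICAM1, NFKB2, NFKBIA and NFKBIE had log2 fold changes of 2.96, 3.01, 2.59, 2.02, 1.88 and 1.55. The subunits RELA and NFKB1 had 0.17 and 0.37 and were not called (NFKB1 was with the GC correction, adjusted p = 0.0279). Without the GC correction no checkpoint gene tested reached the log2 fold change of any of these 7. With it PDCD1LG2 (1.77) stood above NFKB2, NFKBIA and NFKBIE (1.69, 1.63 and 1.23).

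Of 14 tested genes around tryptophan and kynurenine, not all of them downstream of IDO1, KYNU was the only one called. KYNU (NCBI gene 8942), the kynureninase that splits kynurenine, had 6.94 ± 0.465 CPM in Control and 29.2 ± 3.04 CPM after RC48 (SD, n = 3 each). Its log2 fold change was 2.07 (SE 0.15, adjusted p = 6.1e-04, edgeR), and it was called in each fit without 1 library (adjusted p at most 0.0175). In the corrected fit AHR, the receptor that kynurenine activates, was also called, as downregulated (log2 fold change -0.53, adjusted p = 0.0248; -0.86 and 0.177 without it).

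Among 14 genes around CD47 and the signals for phagocytosis, 11 were tested and 2 upregulated, THBS1 and B2M. THBS1, the gene of the CD47 ligand thrombospondin-1, went from 196.8 ± 14.4 to 418.5 ± 50.9 CPM (SD, n = 3 each). This log2 fold change of 1.09 (adjusted p = 0.00666, edgeR) was not called without any 1 of the Control libraries (adjusted p up to 0.0755). Of the enzymes that modify the site on CD47 that SIRPα binds, QPCTL had a log2 fold change of -0.14 and QPCT of 0.53, and neither was called. With the correction QPCT (0.61, adjusted p = 0.00770) was upregulated and QPCTL (-0.46, adjusted p = 0.0374) downregulated, ITGAV was upregulated beside THBS1 and B2M, and 4 of the 11 were higher and 1 lower in all. Calreticulin (CALR), a signal for engulfment, had 703.3 ± 28.2 and 779.0 ± 114.4 CPM and was not called (adjusted p = 0.485).

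**Figure D5:**
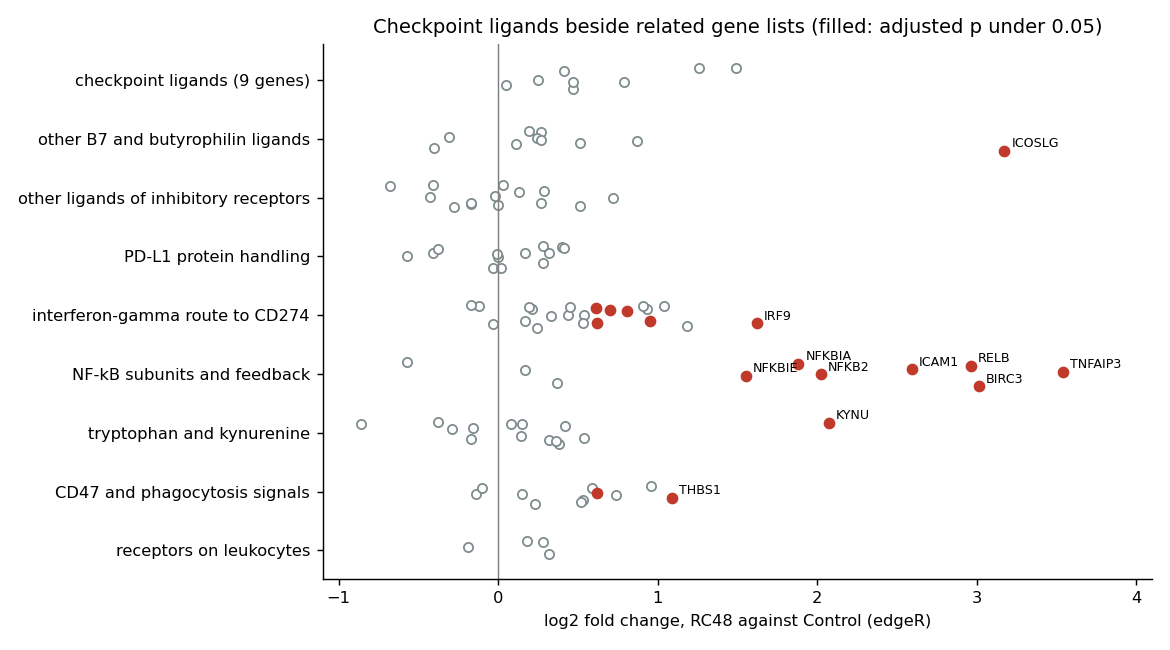
Log2 fold change (edgeR, RC48 against Control, no GC correction) of each tested gene of the checkpoint ligands and of 8 related gene lists, 1 point per gene with random vertical spread. Filled points have an adjusted p-value under 0.05, and B2M appears in 2 lists. The NF-κB list reaches 3.54 with TNFAIP3, and ICOSLG (3.17) and KYNU (2.07) stand alone in their lists, while the checkpoint ligands end at 1.49 with PDCD1LG2, unfilled.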

How the data were processed

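Total RNA of SW780 was sequenced by the authors on a BGI instrument. Reads were filtered with SOAPnuke, mapped with Bowtie2 and counted with RSEM by the authors, with hg38 named in the submitters' processing notes and no versions given in the sources used here. The deposited estimated counts are not normalized, and the deposited TPM, made by the authors, are scaled for gene length and library size. RC48 replicate 2 had counts only among the files used here. Counts were rounded, filtered with filterByExpr, normalized by TMM and tested with edgeR 4.0.16 (R 4.3.3) by the quasi-likelihood test, RC48 against Control without covariates, with Benjamini-Hochberg adjustment over all 13055 genes at a threshold of 0.05. The limma test that the study names was an alternative, because 1 library had no TPM file here. The GC correction subtracted each library's loess trend (span 0.3) of log2 CPM on mean transcript GC content (GENCODE release v29, 99.6% of genes) as an offset. It was used because earlier results of these data were known, as were the choice of the 9 genes and of all lists. Named were all 9 genes and, of each list, called genes (up to 6 by size without the GC correction). NFKBIE, genes called with the correction alone and further genes that were not called were named after their values were seen. Permutation tests used log2(CPM+0.1). The procedure was also run on simulated data with the same dispersion for all genes and a straight GC trend. These settings are simpler than these libraries, so the run is no check of the calls given here. Alternatives were DESeq2 1.42.0, limma 3.58.1 on log2(TPM+1) and log2(TPM+0.1), voom with quality weights, other size factors and filters, a replicate term, and leaving out each library. Summaries used Python 3.11.15, scipy 1.17.1 and matplotlib 3.10.9. Positions are from RefSeq, GRCh38.p14. Some single genes of the lists are not reported here.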

Additional observations from a re-analysis of the deposited data

How the results depend on the processing

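The count of called genes, 288 in the main fit, was 892 with the GC correction, 559 with the replicate block and GC correction, 681 in DESeq2, 2711 and 1311 in limma on log2(TPM+1) and log2(TPM+0.1), and 8018 in voom. With 1 library left out it ran from 68 to 3726, and from 245 to 2238 with the GC correction as well (1502 without RC48 replicate 1). Of the checkpoint genes, 0 were called in the main fit and 3 with the GC correction, with or without the block. The count was 1 without a filter, 1 in DESeq2, 1 in each limma fit on TPM and 8 in voom. With 1 library left out it was 4 without RC48 replicate 2 (28.3% of all genes called) and 3 without RC48 replicate 1 (6.82%). It was 0 in the other such fits (0.515% to 0.706%). With the correction as well it was 3 without RC48 replicate 1 or 2 (11.4% and 17%) and 1 without Control replicate 3 (2.62%). It was 2 without Control replicate 1 or 2 or RC48 replicate 3 (1.85%, 2.02% and 2.2%). Of all genes, 1.69% were called without a filter and 4.28% with the block and GC correction. DESeq2 called 4.93%, the limma fits on TPM 20.8% and 10%, and voom 61.4%. Replicate numbers did not pair the libraries (correlations of same-numbered deviations of 0.00204, -0.132 and 0.00478). With the replicate block 331 genes (2.54% of those tested) and 1 checkpoint gene, LGALS9 (adjusted p = 0.00558, edgeR), were called. VTCN1 was tested only without a filter.

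PVR, at 0.05 in the main fit, had a log2 fold change of -0.17 with the GC correction, -0.18 with the replicate block and GC correction, -0.01 with library sizes alone, -0.02 and -0.02 in limma on TPM and, without 1 library, -0.03 (RC48 replicate 3 left out) to 0.09. The correction combined with leaving out Control replicates 1, 2 and 3 gave -0.21, -0.16 and -0.14, and with RC48 replicates 1, 2 and 3 left out -0.04, -0.24 and -0.26. No other tested checkpoint gene changed direction under these alternatives, with CD274 at 0.00 in limma on log2(TPM+0.1).

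With the GC correction the calls were 3 for the other B7 and butyrophilin genes with TNFRSF14, 13 for the interferon-γ route, 2 for tryptophan and 5 for the CD47 list. With 1 library left out they ran from 1 to 3, 0 to 14, 1 to 3 and 0 to 6 in these lists, from 0 to 5 for the other ligands, 0 to 3 for PD-L1 handling, 6 to 9 for NF-κB and stayed at 0 for leukocyte receptors. The cause of these differences was not tested. Depth limits VTCN1, PDCD1LG2, IDO1 and CD274, which had 4, 22, 66 and 117 counts in Control.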

Other observations

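Receptors on leukocytes, some for these ligands and others for related ligands, were looked for in the same libraries. Of 19 such genes, 10 were listed and 9 were not, among them PDCD1 (PD-1), CTLA4 and TIGIT. The 4 with enough reads were PVRIG, CD96, LAG3 and CD226, and edgeR called 0 of them with or without the GC correction. PVRIG, a receptor of NECTIN2, was the most abundant with 7.90 ± 0.998 CPM in Control and 9.64 ± 3.66 CPM after RC48 (SD, n = 3 each). CD96 and CD226, which bind PVR, had 1.24 ± 0.449 and 0.660 ± 0.070 CPM in Control and 1.42 ± 0.457 and 0.578 ± 0.0262 CPM after RC48. SIRPA, the gene of the CD47 receptor, had 24.0 ± 1.19 and 28.3 ± 2.13 CPM, with a log2 fold change of 0.23 (adjusted p = 0.314, edgeR).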
